A study of Mus musculus with 2 samples.

Results

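The 8 genes described here make up the MHC class II presentation machinery of the mouse. They are the antigen-presenting chains H2-Aa, H2-Ab1 and H2-Eb1, the peptide editors H2-DMa, H2-DMb1 and H2-DMb2, the invariant chain Cd74 and the transactivator Ciita. They were taken by gene symbol, whatever their level, and all 8 were found among the 32285 genes listed for each library. The cells came from the right quadriceps of male wild-type C57BL/6J mice, aged 14 weeks, that had been injured by injection of 100 µL of 1.2% BaCl2, a salt that kills myofibers. Mononuclear cells were released from muscle taken 1 or 3 days post-injury, those of 5 mice were pooled on each day, and the pools were cryopreserved and then profiled by droplet-based 3′ single-cell RNA-sequencing. Both days share the strain, the sex, the muscle and the injury, no uninjured muscle was analysed here, and myofibers were not captured. There was 1 library per day, so a difference between days has no replicate check, no test was made, and the ranges in parentheses are exact 95% confidence intervals that cover counting error only.

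MHC class II molecules are pairs of an alpha and a beta chain that carry peptides from engulfed proteins to the surface of antigen-presenting cells, where CD4+ T cells read them. The invariant chain Cd74 holds new pairs together and fills their groove until lysosomal proteases cut it away, and the H2-DM editors then exchange the remaining fragment for peptides. Ciita binds no DNA itself but joins a complex of factors on the class II promoters. Dendritic cells, B cells and activated macrophages are the professional presenters, and C57BL/6 mice transcribe H2-Eb1 although a defect in its partner gene H2-Ea keeps the I-E molecule from the surface.

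Class II promoters are known for an X box and a Y box at a set distance, on which the complex that Ciita joins assembles, so the stretches of the members that hold both sets of letters are shown. They come from RefSeq on the GRCm38.p6 build, and each is written in the direction of transcription with 8 bases on either side of the boxes. Capitals mark the X1 box core ACNGATG or, in H2-Aa, the X2 box TGACGTCA, followed by the Y box GATTGG.
H2-Eb1, chr17:34305771-34305820, plus strand: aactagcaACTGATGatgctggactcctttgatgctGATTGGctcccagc
H2-DMb1, chr17:34153092-34153142, plus strand: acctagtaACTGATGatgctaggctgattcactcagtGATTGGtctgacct
H2-DMb2, chr17:34145121-34145171, plus strand: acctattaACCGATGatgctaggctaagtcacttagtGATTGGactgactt
H2-Aa, chr17:34287859-34287905, minus strand: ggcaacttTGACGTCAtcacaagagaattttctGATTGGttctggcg
From the end of the X1 core to the start of the Y box there were 21 bases in H2-Eb1 and 22 in both H2-DMb genes. In H2-Aa 17 bases lay between the X2 box and the Y box, a distance that cannot be set beside those from the X1 core. The Y box began 60 bases before the transcription start of H2-Eb1, 62 before that of H2-DMb1, 91 before that of H2-DMb2 and 49 before that of H2-Aa. These letters are common: of 32851 promoters of 300 bases searched on both strands, 9.85% held ACNGATG, 1.79% held TGACGTCA and 16.1% held GATTGG. None of the 4 stretches shown held both the X1 and the X2 letters, so an overlap of the 2 could not be seen. The ACNGATG of the H2-Aa promoter lay on its other strand. Of the 2 promoters listed for H2-DMa, 1 held GATTGG and neither held ACNGATG, and no promoter entry was matched for H2-Ab1, Cd74 or Ciita. On the same build the 6 H2 genes lie on chromosome 17, from 34119693 at H2-DMa to 34316674 at H2-Eb1, and Ciita lies on chromosome 16 from 10480014 to 10531064. The stretches lie upstream of the annotated starts, outside the transcripts.

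The day 1 library gave 6735 cells and the day 3 library 4627, with medians of 9389 and 14548 unique molecular identifiers (UMIs) per cell and no cell barcode in common. The day 1 file listed 737280 barcodes and the day 3 file 6794880, so the capture reagents may have differed between days. The cells formed 14 clusters, built without the 8 genes, and marker genes put them into 6 named types and 1 unnamed cluster. The monocyte/macrophage-like type held 3826 cells on day 1 and 3098 on day 3, and the dendritic cell-like type, led by the lectin Cd209a, held 100 and 233. Neutrophil-like cells numbered 2076 and 244, fibroblast or fibro-adipogenic progenitor (FAP)-like cells 7 and 815, satellite cell/myoblast-like cells 6 and 199, endothelial-like cells 85 and 29, and the unnamed Cxcl5-led cells 635 and 9. No cluster was named B cell-like: the 6 B cell markers summed to 22.4 CPM, the count per 1000000 UMIs of the group, in dendritic cell-like cells on day 1, with 3 of them at 0, and to 33.1 CPM on day 3. In monocyte/macrophage-like cells they summed to 0.801 and 5.02 CPM, and the immunoglobulin gene Ighm was among the leading genes of the Ifi213-led cluster of that type. Genes that move with the members may still have shaped the clusters, so levels by cluster are given as a description.

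Over all cells, Cd74 was the most abundant member and lower on day 3, while the presenting chains differed little between days. H2-Aa was at 371 CPM (367 to 376) on day 1 and 372 CPM (368 to 377) on day 3. H2-Ab1 was at 325 and 354 CPM, and H2-Eb1 at 309 and 338 CPM. Since a 3′ UMI counts a molecule once whatever its length, these levels can be set side by side: the 3 chains lay within a narrow range and below Cd74. Cd74 was at 1457 CPM (1448 to 1466) on day 1 and 1067 CPM (1059.8 to 1074) on day 3, a log2 ratio of -0.45 (-0.46 to -0.44).

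The editors were far lower than the chains they serve. H2-DMa, the alpha chain of the editor, was at 50.6 CPM on day 1 and 76.1 CPM on day 3, a log2 ratio of 0.59 (0.53 to 0.65). H2-DMb1, its beta chain, was at 53.7 and 55.2 CPM, and H2-DMb2, a near-identical copy whose reads cannot be split from those of H2-DMb1 with certainty, was at 2.699 and 3.06 CPM. Ciita, the transactivator, was the lowest on day 1 at 1.84 CPM (1.54 to 2.19) and stood at 4.704 CPM (4.25 to 5.19) on day 3, from 131 and 396 UMIs.

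**Figure D1:**
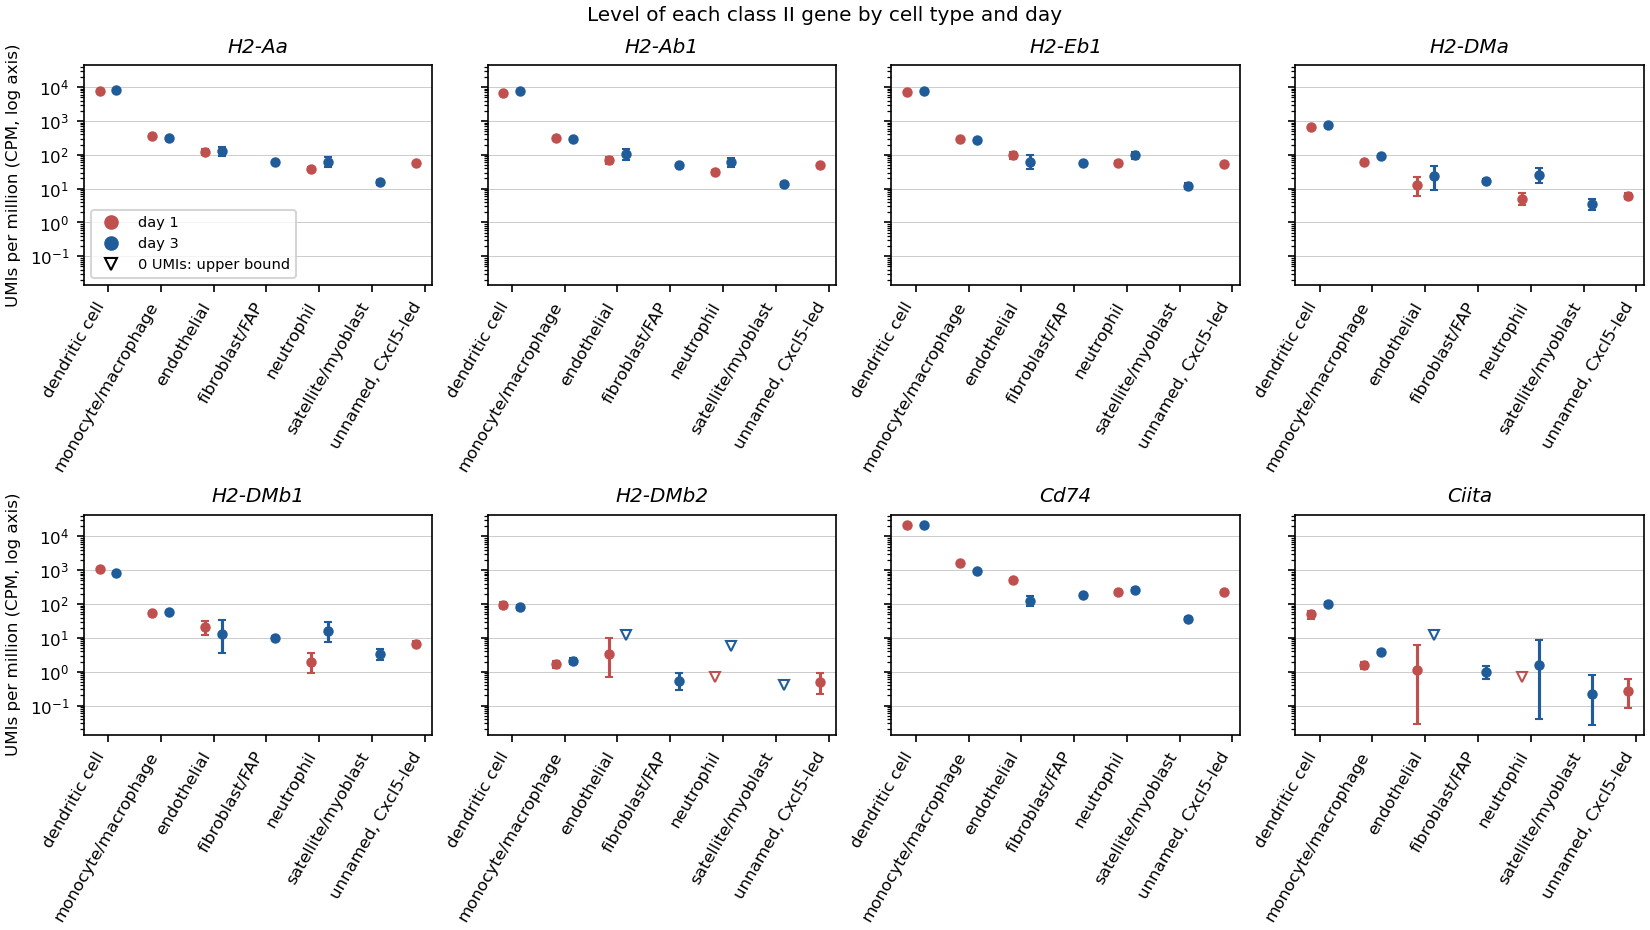
Level of each of the 8 genes by cell type, in CPM of all UMIs of the type on a log axis, with day 1 and day 3 as separate points, exact 95% Poisson intervals, and open triangles for the upper bound where no UMI was seen. Groups of under 20 cells on a day are left out. The dendritic cell-like points stand highest for all 8 genes on both days, with Cd74 at 22244 and 21269 CPM.

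Dendritic cell-like cells held by far the highest level of every member on both days. In these cells H2-Aa was at 7956 CPM (7792 to 8124) on day 1 and 8204 CPM (8073 to 8337) on day 3, H2-Ab1 at 6891 and 7952 CPM, and H2-Eb1 at 7037 and 7661 CPM. Cd74 alone was at 22244 CPM (21968 to 22522.5) and 21269 CPM (21057 to 21482), and the 8 genes together were at 46027 and 46857 CPM. The summed level in dendritic cell-like cells was 17.04-fold that of monocyte/macrophage-like cells on day 1 and 23.6-fold on day 3. That distance differed between members: H2-DMa was 10.9-fold and 8.104-fold higher, Cd74 13.7-fold and 22.2-fold, H2-Aa 22.2-fold and 26.8-fold, and H2-DMb2 56.4-fold and 39.8-fold.

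The editors and the transactivator were also highest in dendritic cell-like cells. H2-DMa was at 660.1 and 765 CPM there, H2-DMb1 at 1095 and 825 CPM, and H2-DMb2 at 94.2 and 81.1 CPM. Ciita was at 49.3 CPM (37.2 to 64.2) and 99.8 CPM (85.8 to 115), from 55 and 181 UMIs. On day 3 H2-DMb1 and H2-DMb2 were lower, and H2-DMa and Ciita were higher. Of these genes only H2-DMb2 had intervals that overlapped between days. The share of all genes with intervals apart was not counted.

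In monocyte/macrophage-like cells the chains were lower and Cd74 made up more of the total. H2-Aa was at 359 CPM (353 to 364) on day 1 and 306 CPM (301 to 311) on day 3, H2-Ab1 at 317 and 291 CPM, and H2-Eb1 at 284 and 268 CPM. Cd74 was at 1623 CPM (1611 to 1635) and 959 CPM (949.8 to 967), and it was the member with the largest difference below day 1 in these cells, with a log2 ratio of -0.76 (-0.78 to -0.74). H2-DMa, at 60.3 CPM (58.1 to 62.7) and 94.4 CPM (91.7 to 97.2), went the other way. H2-DMb1 was at 54.4 and 59.3 CPM, H2-DMb2 at 1.67 and 2.03 CPM and Ciita at 1.56 and 3.92 CPM. Different clusters held most of this type on each day, the Ppbp-led, Serpinb2-led and Gm9733-led clusters on day 1 and the Gpnmb-led, Ifi213-led, Ifitm6-led and Fcrls-led clusters on day 3.

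The other types held far less class II RNA. The 8 genes summed to 359 and 523 CPM in neutrophil-like cells, 829 and 458 CPM in endothelial-like cells, 385 CPM in fibroblast/FAP-like cells on day 3 and 84.1 CPM in satellite cell/myoblast-like cells on day 3. Barcodes with at most 100 UMIs, taken as free RNA, carried the 8 genes at 2133 CPM on day 1 and 1583 CPM on day 3. Scaled by collagen and Dcn UMIs, that background would give 1.54% and 1.40% of the summed level measured in monocyte/macrophage-like cells and 0.0276% and 0.0396% of that in dendritic cell-like cells. In the other types it would give 12.004% and 97.1% in neutrophil-like cells and 94.03% in satellite cell/myoblast-like cells on day 3, so the class II level of those neutrophil-like and satellite cell/myoblast-like cells of day 3 cannot be told apart from free RNA. Collagen that a type makes itself raises this estimate, so none is given for fibroblast/FAP-like cells, and that of endothelial-like cells, 96.9% and 91.4%, is an upper value. Single cells decided some levels: 1 cell supplied 72.3% of the members' UMIs of endothelial-like cells on day 1, 3 cells supplied 37.2% of those of neutrophil-like cells on day 1, and 7 of 635 cells supplied 72.3% of those of the unnamed Cxcl5-led cells on day 1, which summed to 401 CPM.

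The share of cells with at least 1 UMI of H2-Aa was highest in dendritic cell-like cells on both days. H2-Aa was detected in 82% (73.1 to 88.97) of dendritic cell-like cells on day 1 and 81.1% (75.5 to 85.9) on day 3, and in 17.4% and 20.9% of monocyte/macrophage-like cells. In satellite cell/myoblast-like cells, which should lack it, 16.1% held a UMI on day 3, at a median of 44121 UMIs per cell against 7749 in dendritic cell-like and 13548.5 in monocyte/macrophage-like cells. Thinned to 1000 UMIs per cell, the shares were 73.4% and 79.6% in dendritic cell-like cells, 9.003% and 9.68% in monocyte/macrophage-like cells, and 0.969% in satellite cell/myoblast-like cells. At equal depth the dendritic cell-like type therefore stood far above both others, and the monocyte/macrophage-like type above the satellite cell background.

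Cd74 was detected more widely than the chains in monocyte/macrophage-like cells. It was found in 59.6% of them on day 1 and 53.5% on day 3, or 27.4% and 21.1% after thinning. H2-DMa was found in 33.98% and 60.5%, or 5.29% and 10.3% after thinning, so its share was higher on day 3 while that of Cd74 was lower. Ciita was found in 1.07% and 3.65% of monocyte/macrophage-like cells and in 30% (21.2 to 39.98) and 42.1% (35.6 to 48.7) of dendritic cell-like cells. Its counts per cell were low in every type, and no UMI of Ciita was seen in the 2076 neutrophil-like cells of day 1, which allows a level of up to 0.714 CPM by the exact interval.

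Cd74 and the presenting chains were seen together in most dendritic cell-like cells and in a minority of monocyte/macrophage-like cells. Cd74 and all 3 chains were detected in 80% of dendritic cell-like cells on day 1 and 80.7% on day 3, against 11.3% and 12.7% of monocyte/macrophage-like cells. By number, 433 of 537 such cells on day 1 and 392 of 648 on day 3 were still monocyte/macrophage-like. Cd74 without any chain was seen in 36.98% and 27.99% of monocyte/macrophage-like cells and in 7% and 1.72% of dendritic cell-like cells. These shares were not thinned, and a missed chain at low depth counts as absent.

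**Figure D2:**
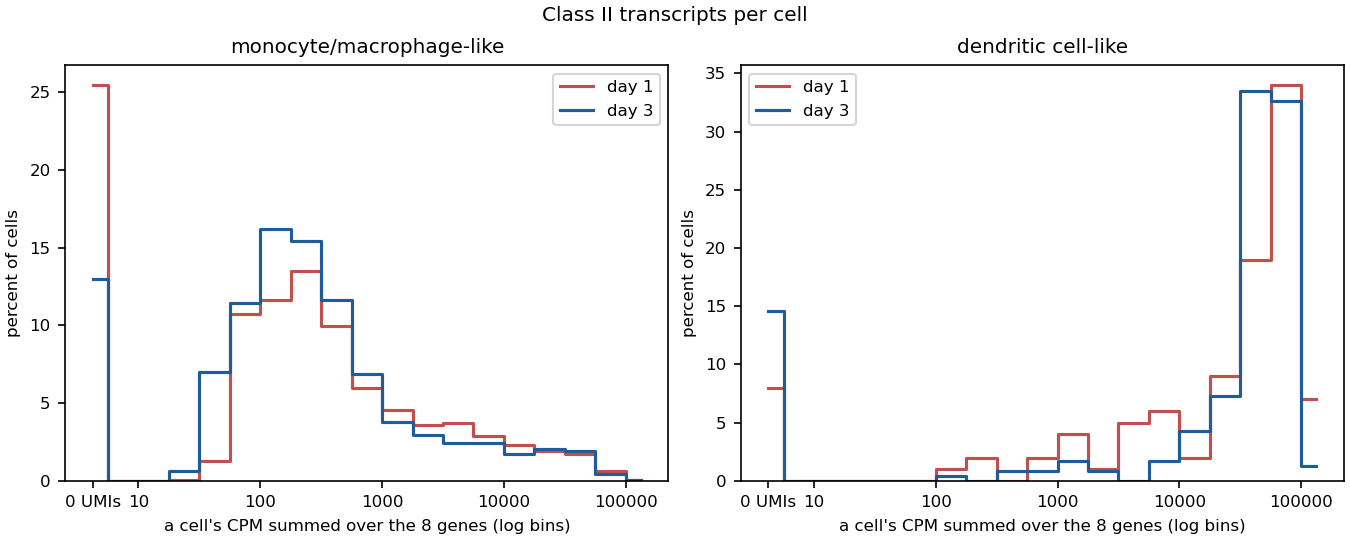
Percent of cells, on the vertical axis, by a cell's CPM summed over the 8 genes, in logarithmic bins with a separate bin for cells without a UMI, for monocyte/macrophage-like cells on the left and dendritic cell-like cells on the right. Of the dendritic cell-like cells 71% on day 1 and 78.97% on day 3 reach 10000 CPM, against 6.61% and 6.198% of the monocyte/macrophage-like cells.

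A small number of cells carried most of the class II RNA. Cells in which the 8 genes made up at least 1% of UMIs, or 10000 CPM, numbered 335 of 6735 on day 1 and 379 of 4627 on day 3, and they held 80.3% and 82.6% of the members' UMIs. Of these cells 71 and 184 were dendritic cell-like and 253 and 192 monocyte/macrophage-like. Within the monocyte/macrophage-like type they held 73.8% and 74.97% of the members' UMIs, and the cells under 10000 CPM averaged 759.9 and 523 CPM. The value of 10000 CPM is a point on a range, with 70 and 40 monocyte/macrophage-like cells between 8000 and 12000 CPM.

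The monocyte/macrophage-like cells at or over 10000 CPM carried fewer macrophage marker UMIs than the rest on day 3 and more Cd209a on both days. Their median summed level of the 10 monocyte/macrophage markers was 3453 CPM on day 1 and 3657 CPM on day 3, against 3186 and 8166 CPM in the other cells of the type and 587 and 516 CPM in the dendritic cell-like cells over the same level. C1qa, which codes for a complement subunit and is 1 of these 10 markers, was at 626 and 938 CPM in them and at 485 and 1927 CPM in the rest. Cd209a was at 75.9 and 159 CPM in them and at 2.03 and 0.2404 CPM in the rest. The part of dendritic cells that the clustering placed in this type, or of doublets, in these values was not tested.

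**Figure D3:**
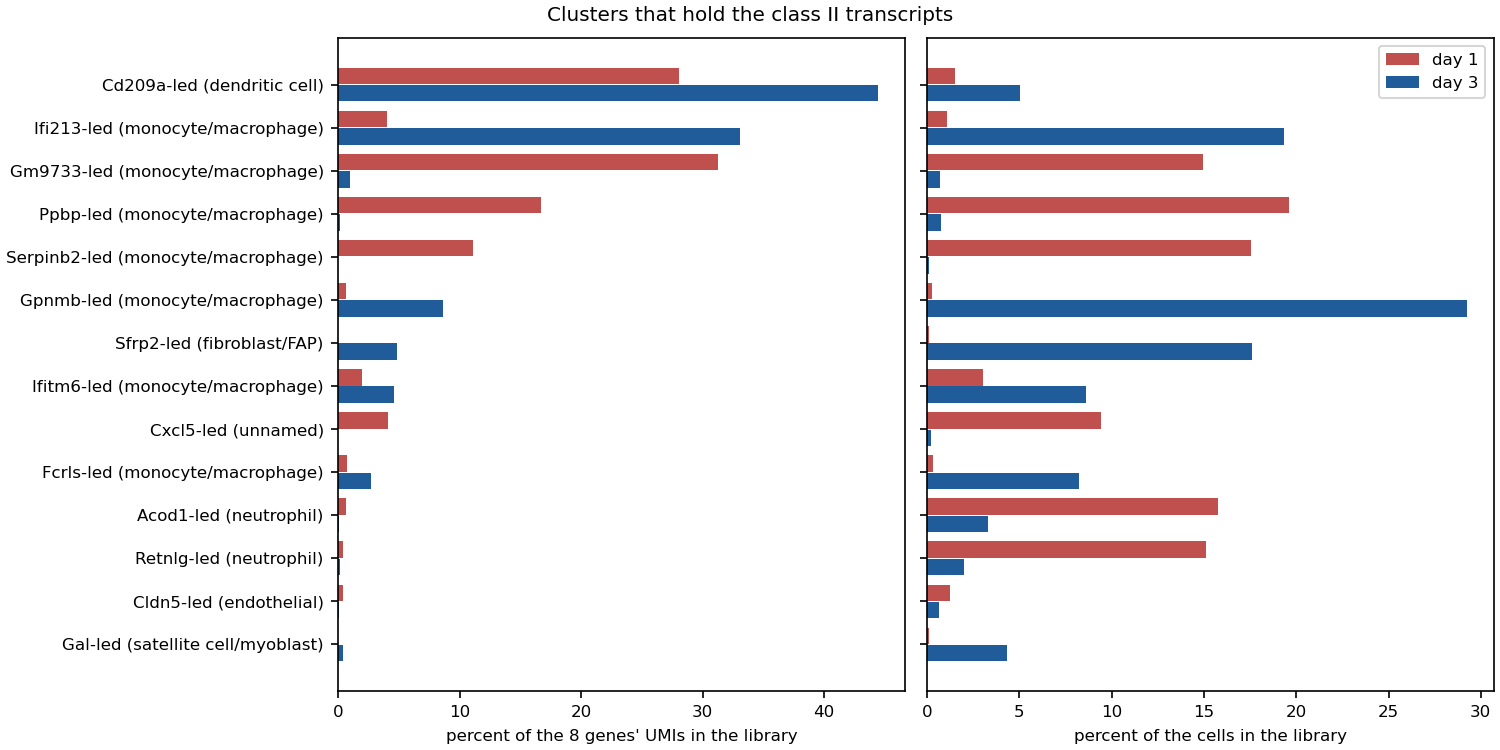
Percent of the 8 genes' UMIs, on the left, and percent of cells, on the right, that each of the 14 clusters held in its library, with 1 bar per day. The Cd209a-led dendritic cell-like cluster holds 28.1% and 44.5% of the UMIs with 1.48% and 5.04% of the cells.

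The source of class II RNA differed between the libraries. Dendritic cell-like cells were 1.48% of cells and supplied 28.1% (27.9 to 28.3) of the members' UMIs on day 1, and were 5.04% of cells and supplied 44.5% (44.2 to 44.7) on day 3. Monocyte/macrophage-like cells were 56.8% and 66.95% of cells and supplied 66.4% and 50.05% of the UMIs. Members differed in this share: dendritic cell-like cells supplied 20.4% and 21.7% of H2-DMa UMIs but 54.7% and 56.98% of H2-DMb2 UMIs, with H2-Aa between them at 33.6% and 47.4%. The share of dendritic cell-like cells depended on how cells were clustered and named, running from 24.4% to 53.7% on day 1 and from 39.95% to 67.7% on day 3 over 13 alternatives, and at a resolution of 0.4 no such cluster formed and monocyte/macrophage-like cells held 94.3% and 94.4%. The number of cells of each type in a library also depends on recovery and on the mitochondrial limit, which removed 277 barcodes on day 1 and 1804 on day 3.

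Among the 7 monocyte/macrophage-like clusters the summed level differed widely. Where a cluster held at least 50 cells, it ran from 1410.03 to 13287 CPM on day 1 and from 596 to 5753 CPM on day 3. The Gm9733-led cluster, 1008 cells on day 1, was at 5431 CPM and supplied 31.3% of all members' UMIs of that day. The Ppbp-led and Serpinb2-led clusters, whose leading genes include the arginase Arg1, were at 1803 and 1410.03 CPM on day 1. The interferon-responsive Ifi213-led cluster, whose leading genes include Rsad2, Ifit3 and Irf7, was at 13287 CPM in 73 cells on day 1 and 5753 CPM in 894 cells on day 3, and it supplied 33.05% of the members' UMIs on day 3. The largest day 3 cluster, Gpnmb-led with Trem2 among its leading genes, was at 596 CPM, and the Fcrls-led cluster at 982 CPM.

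Among these 7 clusters, only the Ifi213-led and Ifitm6-led clusters held at least 50 cells on both days, and their summed levels differed between days in opposite directions. The summed log2 ratio of day 3 over day 1 was -1.21 (-1.24 to -1.17) in the Ifi213-led cluster and 0.502 (0.45 to 0.56) in the monocyte-marked Ifitm6-led cluster, where the level was 1777 CPM on day 1 and 2517 CPM on day 3. Of the 73 day 1 cells of the Ifi213-led cluster, 4 carried mast cell markers, and the remaining cells were at 13933.5 CPM. Of all 73, 17 cells at or over 10000 CPM held 92.96% of the members' UMIs, and the cells of the cluster under 10000 CPM were at 1316 CPM on day 1 and 952 CPM on day 3.

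**Figure D4:**
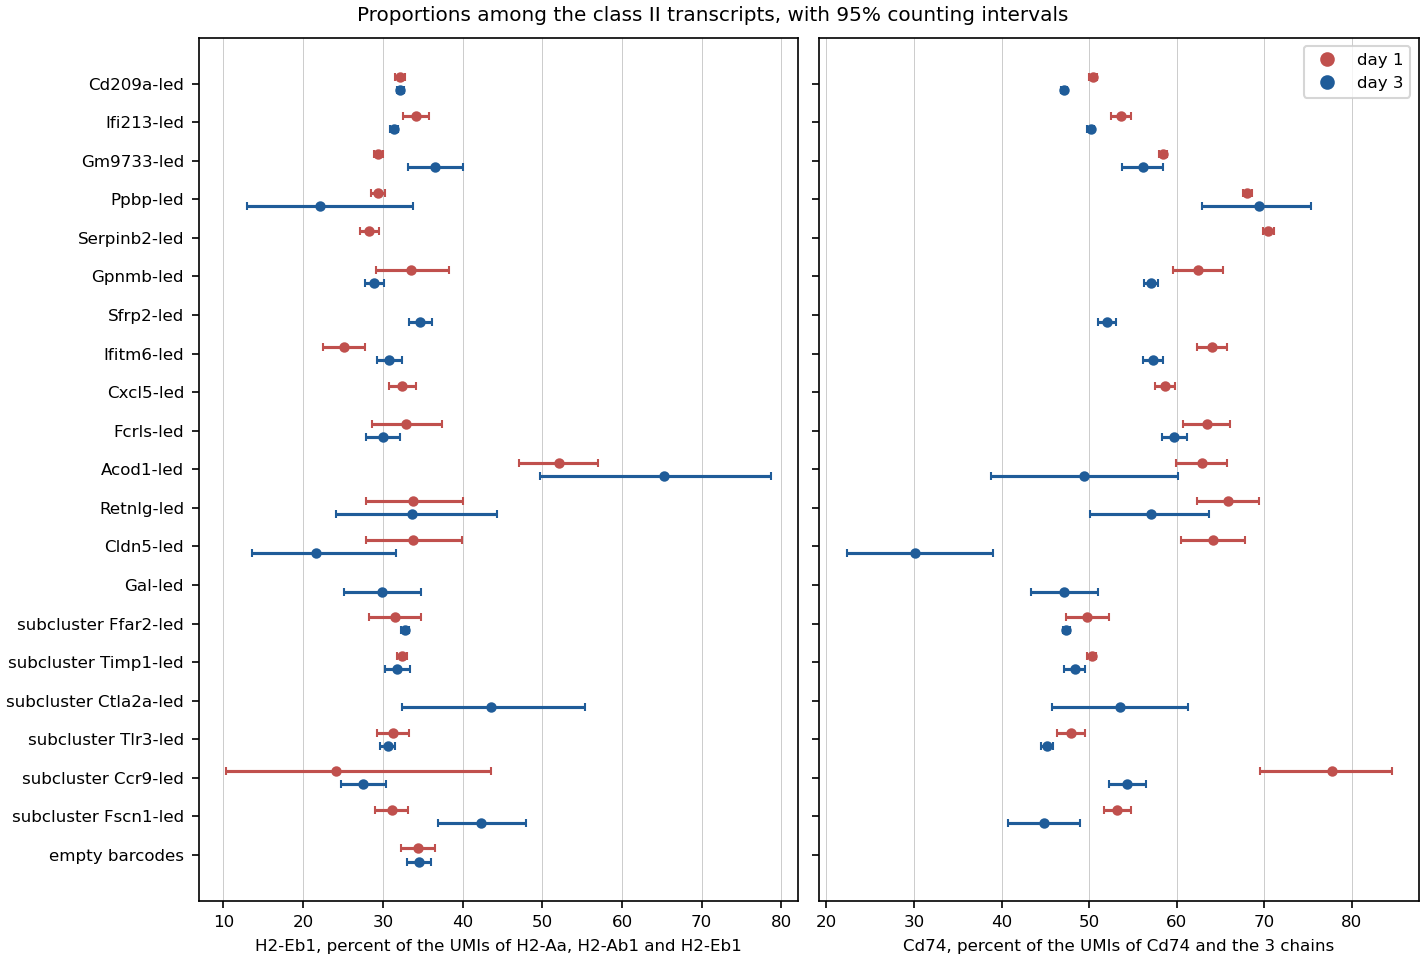
H2-Eb1 as a percent of the UMIs of the 3 chains, on the left, and Cd74 as a percent of the UMIs of Cd74 and the 3 chains, on the right, by cluster, dendritic cell-like subcluster and day, with exact 95% binomial intervals. The Acod1-led cluster stands to the right of the others in the left panel, at 52.1% on day 1, and the Serpinb2-led cluster of day 1 stands at 70.5% in the right panel.

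The balance of the invariant chain and the presenting chains differed between cell types and days. Cd74 made up 50.4% (49.96 to 50.9) of the UMIs of Cd74 and the 3 chains in dendritic cell-like cells on day 1 and 47.2% (46.8 to 47.5) on day 3. In monocyte/macrophage-like cells it made up 62.8% (62.5 to 63.1) and 52.6% (52.2 to 52.9). By cluster the share on day 1 was highest in the Serpinb2-led cells at 70.5% and the Ppbp-led cells at 68.1% and lower in the Gm9733-led cells at 58.4%, and on day 3 it was 57.05% in the Gpnmb-led and 50.2% in the Ifi213-led cells. Most of these UMIs came from few cells, so intervals that treat UMIs as independent are too narrow.

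Subclusters of the dendritic cell-like type carried the genes in different proportions. The 69 Timp1-led cells of day 1, which carried type 2 dendritic cell markers, summed to 50155 CPM. The 118 Ffar2-led cells of day 3 also scored highest for type 2 markers, and they summed to 57897 CPM. With the macrophage marker Adgre1 among its leading genes, that subcluster stayed unnamed. It held 56107 of the 84956 members' UMIs of the dendritic cell-like type on day 3. The 40 Tlr3-led, type 1 dendritic cell-like cells of day 3 were at 47078 CPM. All 3 lay within a narrow range of summed level.

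The plasmacytoid and migratory dendritic cell-like subclusters were small. The 23 Ccr9-led, plasmacytoid cells of day 3 summed to 13910.1 CPM with H2-Aa at 2213 CPM, with H2-DMa at 849 CPM and H2-DMb1 at 821 CPM. In the 5 such cells of day 1 H2-DMa was at 601 CPM (393 to 881) and H2-DMb1 at 254 CPM (127 to 455), the latter below the 1095 CPM of the whole type on that day. The 7 Fscn1-led, migratory cells of day 1 had H2-Aa at 8081 CPM but H2-DMa at 166 CPM (92.8 to 273), H2-DMb1 at 122 CPM (60.7 to 218) and H2-DMb2 at 221 CPM (135 to 341), with intervals that overlap. Only 2 such cells were found on day 3, with H2-DMa at 59.4 CPM, H2-DMb1 at 178 CPM and no UMI of H2-DMb2. The 10 and 37 Ctla2a-led cells carried T, NK or innate lymphoid markers and summed to 58.9 and 1461 CPM. On day 3, 2 of the 37 held 98.8% of the members' UMIs, and the others were at 18.2 CPM. Without the subcluster the rest of the type was at 48229 and 50029 CPM.

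By summed UMIs, H2-Eb1 was out of proportion to the other chains in the Acod1-led neutrophil-like cluster. In the Acod1-led neutrophil-like cluster of day 1, which also expresses Il23a, 212 UMIs of H2-Eb1 stood beside 99 of H2-Aa and 96 of H2-Ab1, a share of 52.1% (47.1 to 57.03) of the chain UMIs. On day 3 the share in this cluster was 65.2% (49.8 to 78.6), from 30 UMIs of H2-Eb1. In the Retnlg-led neutrophil-like cluster of day 1 it was 33.7% (27.9 to 40.02), in dendritic cell-like cells 32.2% (31.6 to 32.7), and in barcodes of at most 100 UMIs 34.4% (32.3 to 36.6). The H2-Eb1 UMIs of the Acod1-led cluster on day 1 came from 91 cells, of which 44 held no UMI of H2-Aa, H2-Ab1 or Cd74. In the Retnlg-led cluster of day 1 this held for 25 of 33 cells, so it was not particular to the Acod1-led cells. There 2 of 1016 cells held 61.8% of the members' UMIs, so its share of 33.7% may rest on few cells. By cells, H2-Eb1 was seen in 33 and H2-Aa in 19 Retnlg-led cells, against 91 and 31 Acod1-led cells. A difference between the 2 clusters in H2-Eb1 was not tested.

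**Figure D5:**
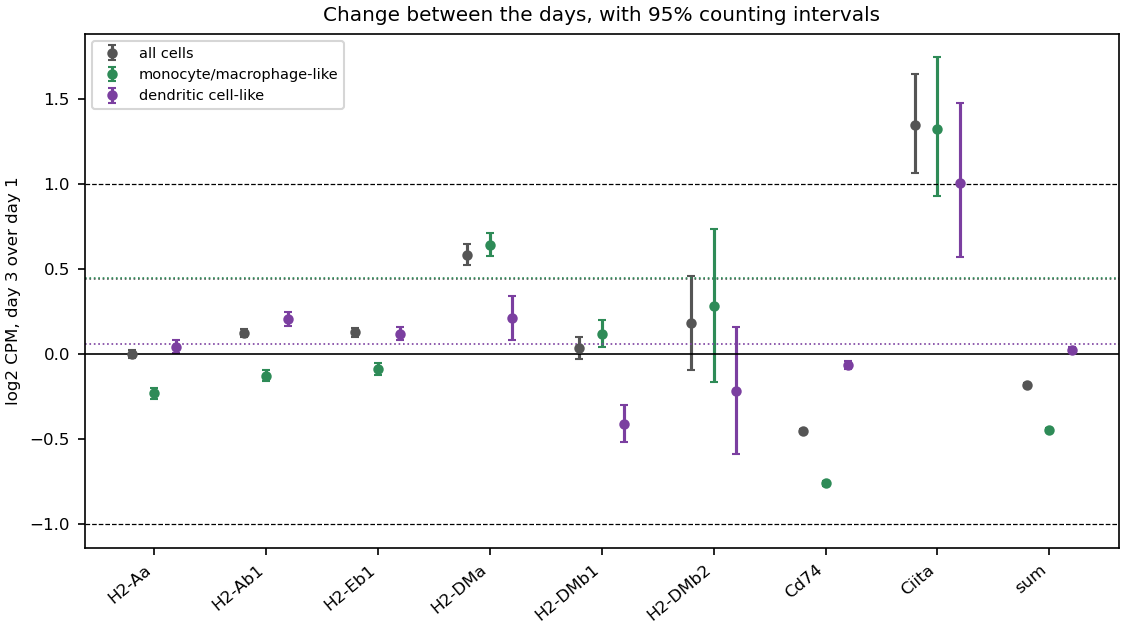
Log2 ratio of CPM on day 3 over day 1 for each of the 8 genes in all cells, monocyte/macrophage-like cells and dendritic cell-like cells, and for their sum, with 95% intervals for counting error. Dashed lines mark 2-fold and dotted lines the median of all genes tested. Ciita lies above 1 in all 3, at 1.35, 1.33 and 1.01.

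With UMIs summed over cells, Ciita was the one member that differed by at least 2-fold between days over all cells and in each of the 2 presenting types, and it was higher on day 3 in all 3. Its log2 ratio was 1.35 (1.06 to 1.65) over all cells, 1.33 (0.93 to 1.75) in monocyte/macrophage-like cells and 1.01 (0.57 to 1.48) in dendritic cell-like cells. The dendritic cell-like type sat in different subclusters on each day, with 69 of 100 cells in the Timp1-led subcluster on day 1 and 13 of 233 on day 3, and 4 and 118 cells in the Ffar2-led. Within subclusters Ciita went in both directions, with intervals that overlapped. In the Timp1-led cells it was at 51.1 CPM (36.8 to 69.1) on day 1 and 37.9 CPM (12.3 to 88.4) on day 3, from 42 and 5 UMIs. It was also lower on day 3 in the Ccr9-led cells, at 46.3 and 38.8 CPM. It was higher in the Tlr3-led cells, at 68.8 and 151 CPM from 5 and 60 UMIs. The Ffar2-led cells had 56.5 and 110 CPM from 2 and 107 UMIs, and the Fscn1-led cells 44.2 and 119 CPM from 4 and 2 UMIs. Over all cells 1 of 8 members was higher by 2-fold or more and 0 lower, against 26.1% and 5.24% of the 13066 genes with at least 100 UMIs. In monocyte/macrophage-like cells the counts were again 1 and 0, against 27.0% and 4.74% of 10857 genes, and in dendritic cell-like cells 1 and 0, against 7.68% and 2.46% of 3618 genes. A rise of this size was thus common among all genes in the first 2 comparisons. Other settings put more members past 2-fold. Cd74 in monocyte/macrophage-like cells passed it under 4 of 18 alternatives, with -1.21 when centred on the median gene. Naming each cell by its own marker scores gave 1.17 for H2-Aa, 1.33 for H2-Ab1, 1.27 for H2-Eb1 and 1.38 for H2-DMa in dendritic cell-like cells. The mean over cells of each cell's CPM gave 1.39 for H2-DMa, 1.39 for H2-DMb2, 1.12 for H2-Ab1 and 1.11 for H2-Eb1 over all cells.

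The median log2 ratio of the members was 0.13 over all cells, 0.019 in monocyte/macrophage-like cells and 0.083 in dendritic cell-like cells, beside 0.44, 0.45 and 0.06 for all genes. Relative to the median gene, Cd74, H2-Aa, H2-Ab1, H2-Eb1, H2-DMb1 and H2-DMb2 would therefore lie below day 1 in the first 2 comparisons, and H2-DMa, with 0.59 and 0.65, and Ciita would stay above it. Summed over the 8 genes the log2 ratio was -0.18 (-0.19 to -0.17) over all cells, -0.45 (-0.46 to -0.43) in monocyte/macrophage-like cells and 0.026 (0.01 to 0.042) in dendritic cell-like cells. The direction over all cells depended on how cells were weighted, since the mean over cells of each cell's CPM gave 0.77 for the sum. In dendritic cell-like cells the day 3 cells had fewer UMIs, with a median of 7749 against 11428, and the part of depth and of reagent version in the differences cannot be told apart from the day.

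With UMIs summed over cells, the chains and H2-DMb1 had ratios of opposite sign in the 2 presenting types. H2-Aa was 0.044 in dendritic cell-like and -0.23 in monocyte/macrophage-like cells, H2-Ab1 0.21 and -0.13, and H2-Eb1 0.12 and -0.084. H2-DMb1 had -0.41 in dendritic cell-like and 0.12 in monocyte/macrophage-like cells. In each of these 4 genes both intervals excluded 0, whereas those of H2-DMb2, at -0.22 (-0.59 to 0.16) and 0.28 (-0.16 to 0.74), held it. The signs of the chains depended on how cells were weighted: with the mean over cells of each cell's CPM, monocyte/macrophage-like cells had 0.089 for H2-Aa, 0.204 for H2-Ab1 and 0.29 for H2-Eb1, beside -0.051, 0.12 and 0.04 in dendritic cell-like cells. In monocyte/macrophage-like cells each chain kept the sign of its summed ratio under 14 of 18 alternatives. These differences between types were not tested. The share of all genes with such opposite signs was not counted, so the pattern cannot be read as particular to the members. Most of the members' UMIs came from few cells, so the intervals are too narrow. The median of all genes was 0.06 in dendritic cell-like and 0.45 in monocyte/macrophage-like cells.

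The other genes of the pathway were grouped by role and are given first for monocyte/macrophage-like cells. In these cells 27.0% of 10857 genes were higher by 2-fold or more and 4.74% lower. Of the 7 proteases and thiol reductases that process the invariant chain and antigen, 1 was higher by 2-fold or more and 0 lower: Ctsb, a lysosomal cathepsin, had a log2 ratio of 1.15, and Ctss, the cathepsin that makes the last cut of the invariant chain in dendritic cells, had 0.95. The median of that list was 0.40, beside 0.45 for all genes. None of the 7 genes of the promoter-binding complex passed 2-fold, and Rfx5, its DNA-binding subunit, had 0.78, with a list median of 0.049. Among the inducers and regulators of Ciita with at least 100 UMIs, Irf8, a lineage factor, had 1.18 and Irf1, an interferon-induced factor, -1.09, with a list median of 0.014.

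Most of the listed costimulatory and inhibitory genes, whose products T cells read beside the class II complex, were lower on day 3 in these cells. Of 6 tested, with a median log2 ratio of -1.67, 4 were lower by 2-fold or more and 1 higher. The shares of all 10857 genes were 4.74% lower and 27.0% higher. Cd80 was at 46.4 and 10.1 CPM and Cd86 at 176 and 53.3 CPM, with log2 ratios of -2.199 and -1.72. Pdcd1lg2 and Cd274, which code for inhibitory ligands, had -3.34 and -1.61, and the costimulatory Cd40 had 1.42. All 3 genes of surface turnover passed 2-fold: the ubiquitin ligases March1 and March8, which remove class II from the surface, had 2.08 and 1.199, and Cd83, which counters March1, had -1.11. A rise past 2-fold was common among all genes in these cells, and a fall was not.

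Dendritic cell-like cells shared part of this pattern. In them 7.68% of 3618 genes were higher by 2-fold or more and 2.46% lower. Irf8 had a log2 ratio of 1.397 and March1 2.18, while Cd83 had 0.46 and the costimulatory ligands Cd80 and Cd86, the 2 of that list with at least 100 UMIs, had -0.77 and -0.31. Of the 7 proteases and thiol reductases none passed 2-fold, and Ifi30, the thiol reductase, had -0.71. H2-Oa and H2-Ob, the chains of a modulator of the editor, were at 47.5 and 84.4 CPM and at 21.5 and 74.5 CPM, so that H2-Ob passed 2-fold with 1.77. Ifng, which codes for the cytokine that induces Ciita, was seen in the dendritic cell-like type as 0 UMIs on day 1 and 66 on day 3, and all of them lay in the lymphoid Ctla2a-led subcluster of 10 and 37 cells. Without that subcluster the log2 ratio of Irf8 was 1.37 and that of March1 2.19.

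Across 9 groups of cell type and day with at least 50 cells, log2 levels of genes were set against the mean log2 level of the members. The most alike of 10388 genes were Ppm1m, Syngr2, Etv3, Lsr, Clec4b1, Batf3, Clec10a, Mob3b, Grk3 and Tyk2. Their Pearson correlations across these groups ran from 0.962 to 0.985. Those of the members themselves, each against the mean that contains it, ran from 0.971 to 0.998. H2-DMb2 entered that mean, but with 450 UMIs it fell under the limit of 500 for a correlation of its own. The groups share libraries and depth, so these are descriptions. Clec10a also served as a type 2 dendritic cell marker. Ppm1m was at 79.8 and 93.8 CPM in dendritic cell-like cells and 21.9 and 24.2 CPM in monocyte/macrophage-like cells.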

How the data were processed

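Cells of injured quadriceps were measured in 2 single-cell 3′ libraries, 1 per day. Per the labels, the authors used Cell Ranger 5.0.0 and the mm10 genome, and deposited a matrix of UMI counts per gene and barcode, not normalized. From these counts the 7367 and 6640 barcodes with the most UMIs were taken and kept with at least 1000 UMIs, 200 genes and at most 7.5% mitochondrial UMIs, leaving 71141227 and 84177707 UMIs. Cells were clustered with Seurat 5.3.0 and sctransform 0.4.2 on 3000 variable genes without markers, members and pathway genes, 10 principal components and resolution 0.8, and clusters were named by at least 3 raised markers. Scrublet (scanpy 1.11.5) called 2 and 0 doublets on its own threshold, which did not work, so doublets stayed in and their removal is an alternative. Levels are CPM of summed UMIs with exact Poisson intervals, shares of cells have Clopper-Pearson intervals and, when thinned, are those expected at that number of UMIs, and ratios use 0.5 added counts and exact binomial intervals (scipy 1.17.1, numpy 2.4.6, pandas 2.3.3). Named genes were the members, the pathway lists and the 10 genes most like the mean log2 level of the members. Some results on genes outside the members are not reported here. Members and lists were chosen with earlier results of these data known. The ratio and its interval were tested on simulated Poisson counts without spread between cells. That setting leaves out the few cells that hold most of the members' UMIs, so it does not show that the intervals hold for them. Other alternatives changed the call of cells, the clustering, the naming, the weighting of cells and the scaling.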

Additional observations from a re-analysis of the deposited data

Results flagged for a closer look

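Of the 8 genes, 4 had log2 ratios of day 3 over day 1 on opposite sides of 0 in dendritic cell-like and monocyte/macrophage-like cells, with counting intervals that excluded 0 in both and with 1 library per day. The dendritic cell-like ratio minus the monocyte/macrophage-like ratio was 0.27 for H2-Aa, 0.33 for H2-Ab1, 0.21 for H2-Eb1 and -0.53 for H2-DMb1. These differences were not tested, and the share of all genes that meet the same rule was not counted. The count of 4 can therefore not be read as particular to the members. Most of the members' UMIs came from few cells, so the counting intervals are too narrow. The median of all genes was 0.06 in dendritic cell-like and 0.45 in monocyte/macrophage-like cells. For H2-Aa the dendritic cell-like ratio itself was 0.044, close to 0. The opposite signs of the chains depended on how cells were weighted, since the mean over cells of each cell's CPM gave 0.089, 0.204 and 0.29 for H2-Aa, H2-Ab1 and H2-Eb1 in monocyte/macrophage-like cells, and each kept its negative sign there under 14 of 18 alternatives.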

How the results depend on the processing

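With 1 library per day the precision is set by counting and by how cells were called, named and weighted. Depth limits Ciita and H2-DMb2 most, which had 131 and 192 UMIs on day 1. Free RNA, doublets and the purity of the dendritic cell-like type limit the shares by cell type. The log2 ratio of the summed members in monocyte/macrophage-like cells was below 0 under all 18 alternatives, from -0.897 to -0.053. Ciita was higher on day 3 under every alternative that gave a value: it passed 2-fold under 17 of 18 over all cells, 17 of 18 in monocyte/macrophage-like cells and 11 of 16 in dendritic cell-like cells, where it ran from 0.82 to 2.28. Cd74 in monocyte/macrophage-like cells ran from -1.21 to -0.32 and H2-DMa from 0.19 to 1.002, each on the same side of 0. The chains were less stable: H2-Aa had the sign of its reported value under 13 of 18 alternatives over all cells and 14 of 18 in monocyte/macrophage-like cells.

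The values below are the log2 ratio of the summed members, day 3 over day 1, and the shares of the members' UMIs by cell type on day 1 and day 3, wherever they moved by more than counting error. The cause of these moves was not tested. A cell call at 10% of the 99th percentile gave log2 ratios of -0.32 in all cells, -0.73 in monocyte/macrophage-like cells and 0.18 in dendritic cell-like cells, monocyte/macrophage-like shares of 55.9% and 38.05% and dendritic cell-like shares of 34.5% and 56.1%. A mitochondrial limit of 15% gave log2 ratios of -0.21 in all cells, -0.396 in monocyte/macrophage-like cells and -0.011 in dendritic cell-like cells, monocyte/macrophage-like shares of 67.2% and 53.2% and dendritic cell-like shares of 27.3% and 41.2%. Removal of the highest-scoring doublets gave log2 ratios of -0.21 in all cells and -0.54 in monocyte/macrophage-like cells, monocyte/macrophage-like shares of 67.6% and 49.1% and dendritic cell-like shares of 30.7% and 46.96%. A resolution of 0.4 gave a log2 ratio of -0.053 in monocyte/macrophage-like cells and monocyte/macrophage-like shares of 94.3% and 94.4%. A resolution of 1.2 gave a monocyte/macrophage-like share of 66.1% on day 1. Use of 20 principal components gave log2 ratios of -0.71 in monocyte/macrophage-like cells and 0.077 in dendritic cell-like cells, monocyte/macrophage-like shares of 60.7% and 37.9% and dendritic cell-like shares of 33.3% and 56.4%. Keeping the members among the variable features gave a log2 ratio of -0.065 in monocyte/macrophage-like cells and monocyte/macrophage-like shares of 95.3% and 94.4%. Log-normalized counts for clustering gave log2 ratios of -0.401 in monocyte/macrophage-like cells and 0.078 in dendritic cell-like cells, monocyte/macrophage-like shares of 70.3% and 54.4% and dendritic cell-like shares of 24.4% and 39.95%. Clustering each library on its own gave log2 ratios of -0.86 in monocyte/macrophage-like cells and 0.24 in dendritic cell-like cells, monocyte/macrophage-like shares of 54.5% and 32.7% and dendritic cell-like shares of 35.2% and 61.7%. Naming each cell by its own marker scores gave log2 ratios of -0.87 in monocyte/macrophage-like cells and 1.09 in dendritic cell-like cells, monocyte/macrophage-like shares of 34.6% and 22.5% and dendritic cell-like shares of 53.7% and 67.7%. The mean over cells of each cell's CPM gave log2 ratios of 0.77 in all cells, -0.12 in monocyte/macrophage-like cells and -0.062 in dendritic cell-like cells. Subtraction of free RNA gave dendritic cell-like shares of 28.5% and 44.97%. Totals without mitochondrial and ribosomal genes gave log2 ratios of -0.15 in all cells and -0.42 in monocyte/macrophage-like cells. Thinning each cell to 3000 UMIs gave log2 ratios of 0.43 in all cells and -0.14 in monocyte/macrophage-like cells, monocyte/macrophage-like shares of 67.8% and 42.3% and dendritic cell-like shares of 29.9% and 56.1%. Leaving out the lymphoid subcluster gave a log2 ratio of 0.053 in dendritic cell-like cells. Leaving out the Ifitm6-led cluster gave log2 ratios of -0.199 in all cells and -0.499 in monocyte/macrophage-like cells, monocyte/macrophage-like shares of 65.7% and 47.6% and dendritic cell-like shares of 28.6% and 46.6%. Centring on the median gene gave log2 ratios of -0.62 in all cells, -0.897 in monocyte/macrophage-like cells and -0.035 in dendritic cell-like cells. A resolution of 0.4 and keeping the members among the variable features gave no dendritic cell-like cluster, so they have no value for that type. Leaving out the lymphoid subcluster or the Ifitm6-led cluster, leaving out cells with mast cell markers, which moved none of these values, and centring were chosen after seeing the data. No paired analysis was possible because each day is 1 library of pooled mice.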

Other observations

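UMIs of the 8 genes were also seen in stromal cells of day 3, at a summed 385 CPM in fibroblast/FAP-like cells. Free RNA of that day carried the genes at 1583 CPM, and its part, or that of doublets, in this level was not tested. In fibroblast/FAP-like cells of day 3 H2-Aa was at 62.2 CPM, Cd74 at 186 CPM and Ciita at 0.953 CPM, and 3 of 815 cells reached 10000 CPM and held 16.2% of the members' UMIs of the type. In the lymphoid Ctla2a-led subcluster, Ifng stood at 557 CPM on day 3 beside a summed level of 1461 CPM for the 8 genes, of which 2 of 37 cells held 98.8%, with the other cells at 18.2 CPM.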
